A study of Mus musculus with 2 samples.

Results

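The Zbtb, Klf and Sox families are groups of transcription factor genes, and their members were taken by symbol alone from the protein-coding genes of the GRCm38 table, as names that begin with Zbtb, Klf or Sox and go on with a digit. This gave 77 of 21770 protein-coding genes, with 41 in the Zbtb family, 17 in the Klf family and 19 in the Sox family. One of the 41, Zbtb8os, is named for its position beside Zbtb8a and encodes no protein of the family. The values come from chromatin immunoprecipitation with sequencing (ChIP-seq) in muscle stem cells, isolated by flow cytometry from untreated C57BL/6 mice whose Pax7 locus carries a YFP knock-in; ages are not given in the sources used here. 1 library was made with an antibody against GFP, which also binds YFP, and 1 from input DNA of cells with the same genotype. Both libraries therefore carry the knock-in allele, and cells without it were not analysed here. The labels do not state whether the YFP is fused to PAX7 or is a reporter. The deposited list of 2977 peaks was the authors' call of the GFP library (10622111 tags after filtering) against the input (20429667 tags). There were no replicates, so nothing was tested between conditions.

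ZBTB proteins join a BTB domain, through which they pair and recruit corepressors, to zinc fingers that bind DNA. KLF proteins bind GC-rich and CACCC sites with zinc fingers at their C-terminus, and SOX proteins bend DNA through an HMG box and often work with a partner factor. All 3 families steer cell identity, and in muscle Sox6 is known as a repressor of slow fibre genes, Sox15 for its part in regeneration and Zbtb18 as a repressor during myogenesis. PAX7 is the paired box factor that marks muscle stem cells. A gene was counted as having a peak when the summit lay inside its span, or when one of its ends was the nearest end of any protein-coding gene to the summit within 50 kb. Such an assignment gives a position and not a regulatory link.

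Peaks were found at 7 of the 41 Zbtb genes, at 1 of the 17 Klf genes and at 1 of the 19 Sox genes. The Zbtb genes were Zbtb1, Zbtb7c, Zbtb9, Zbtb20, Zbtb22, Zbtb25 and Zbtb45. In the other families Klf16 and Sox9 had a peak. By the same rule 9.62% of all protein-coding genes had a peak. The share of the Zbtb family was 17.1% (Wilson 95% interval 8.53 to 31.3%), that of the Klf family 5.88% (1.05 to 27.0%) and that of the Sox family 5.26% (0.935 to 24.6%). Each of these intervals contains the share of all genes. Zbtb1 and Zbtb25 were counted through 1 shared peak, so that the 9 genes rested on 12 peaks.

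**Figure D1:**
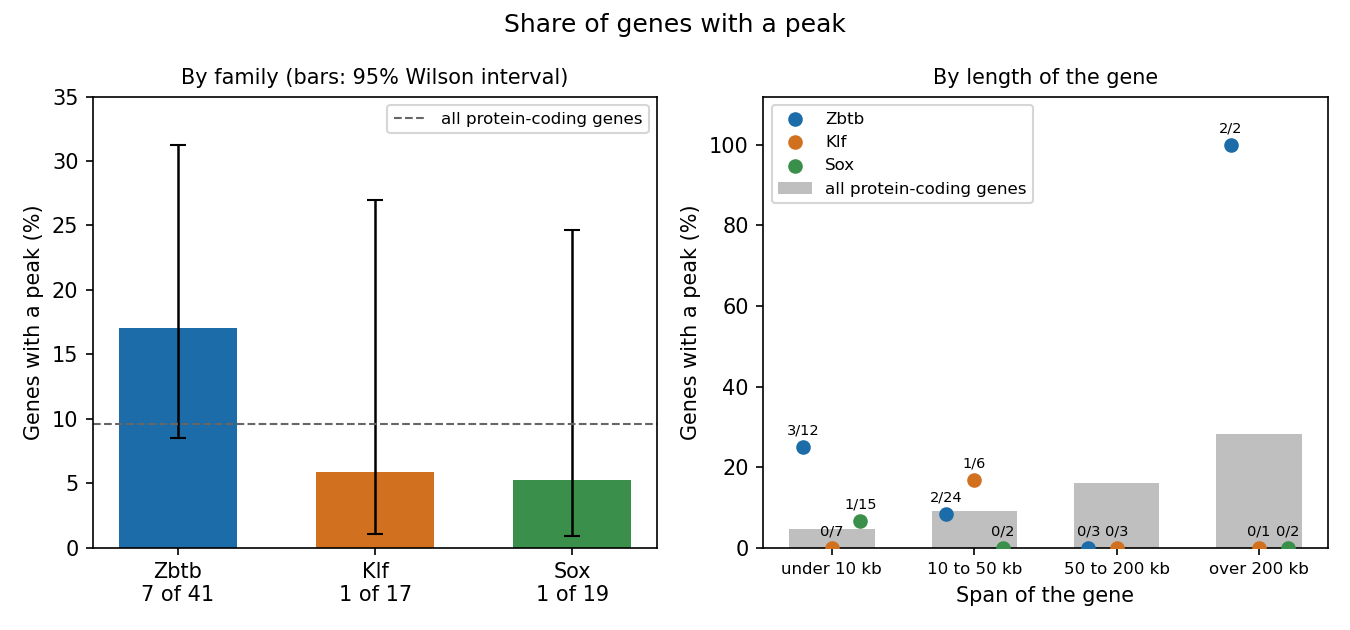
Left, share of genes with a peak (percent) in each family, with 95% Wilson intervals as error bars and the share of all protein-coding genes (9.62%) as the dashed line. Right, the same share by span of the gene, with all protein-coding genes as grey bars and the families as points labelled with their counts; the share of all genes climbs from 4.60 to 28.2%, and 3 of the 12 short Zbtb genes and both long ones have a peak.

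Longer genes catch more summits by this rule. Among all protein-coding genes 4.60% of those up to 10 kb long had a peak, 9.19% of those from 10 to 50 kb, 16% of those from 50 to 200 kb and 28.2% of those over 200 kb. The Zbtb genes with a peak came from both extremes, with 3 of 12 genes in the shortest class (Zbtb9, Zbtb22 and Zbtb45), 2 of 24 in the next (Zbtb1 and Zbtb25), 0 of 3 in the third and 2 of 2 in the longest (Zbtb20 and Zbtb7c). Sox9 was the 1 gene of 15 short Sox genes with a peak, and Klf16 the 1 of 6 Klf genes between 10 and 50 kb. None of the 7 short Klf genes had one. At 2 Zbtb genes (4.88%) there were 2 or more peaks, against 1.71% of all protein-coding genes, and both were the long ones.

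At 4 Zbtb genes the peak overlapped the window around an annotated transcription start. The start sites and sequences are RefSeq's for GRCm38.p6, in windows from 250 bases before to 50 bases after a listed start; 62 of the 77 members had an entry, and Klf16, Sox9 and Zbtb7c are among those without one. Peaks overlapped 4 of 49 Zbtb windows (8.16%), 0 of 14 Klf windows and 0 of 18 Sox windows, against 3.43% of the 21262 windows of all protein-coding genes. The bases before the starts of Zbtb22 and Zbtb9 are shown because a peak covers part of them, with the part under the peak in capitals (169 and 57 bases). The peak of Zbtb22 ends before the start, and that of Zbtb9 runs across it. For Zbtb1 and Zbtb45, 30 bases around the summit are shown, with the 5 bases at the summit in capitals, because both summits fell almost on the listed start. All run 5′ to 3′ along the gene's strand.
Zbtb22, chr17:33915926-33916175, plus strand: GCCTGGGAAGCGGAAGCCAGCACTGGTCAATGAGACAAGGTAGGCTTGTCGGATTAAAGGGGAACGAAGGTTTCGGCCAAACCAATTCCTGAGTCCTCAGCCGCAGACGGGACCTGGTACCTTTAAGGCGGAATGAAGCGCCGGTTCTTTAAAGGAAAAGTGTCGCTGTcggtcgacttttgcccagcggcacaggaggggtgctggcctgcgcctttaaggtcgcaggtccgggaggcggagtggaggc
Zbtb9, chr17:26972929-26973178, plus strand: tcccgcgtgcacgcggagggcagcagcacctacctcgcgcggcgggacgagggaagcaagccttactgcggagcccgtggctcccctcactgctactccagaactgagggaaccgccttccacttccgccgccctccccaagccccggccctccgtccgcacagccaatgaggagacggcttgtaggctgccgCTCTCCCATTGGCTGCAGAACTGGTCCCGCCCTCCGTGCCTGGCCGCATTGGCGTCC
Zbtb1, chr12:76370494-76370523, plus strand: agtcgccgcgtaaGCGGGgccggctcagtg
Zbtb45, chr7:13009846-13009875, minus strand: tatcgttccgcctGTGCCgaggctatctgt

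These 4 windows were rich in G and C, with 60.3 to 75% G or C over 300 bases and 22 to 39 CpG pairs, where the median of all protein-coding windows was 56.3% and 13 pairs and that of the windows over a peak 62.0% and 24 pairs. The 49 Zbtb windows, most of them without a peak, had a median of 63.3% and 25 pairs. 6 words were searched on both strands. The KLF word CCNCNCCC was present in 3 of the 4 windows, namely those of Zbtb22, Zbtb1 and Zbtb45, in 72.7% of all protein-coding windows over a peak and in 56.6% of all protein-coding windows. Of its 4 matches in the members' windows over a peak, 1 lay under the peak itself, at Zbtb1. The paired domain word GTCACGC was in none of the 4, where 13.6% of all windows over a peak and 2.66% of all windows held it. Among the other members it stood in windows of Klf6, Klf15 and Zbtb25, none of which overlapped a peak. The SOX word AACAAT, the AP-1 word TGANTCA, the E-box CAGCTG and the homeodomain word made of TAAT and ATTA with 2 bases between them were in none of the 4 windows either. They stood in 9.05%, 6.99%, 15.6% and 0.315% of all protein-coding windows. The windows held 107 of the 230 bases of the Zbtb9 peak, without its summit, and 193 of the 286 bases of the Zbtb45 peak. At Zbtb22 the window held 169 of the 193 bases of the peak. The rest of these peaks was not searched. A word found or not found is a description of these letters and not a binding site.

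Zbtb22 lies at chromosome 17, 33916176 to 33919325, and its peak (33915902 to 33916094) had its summit 125 bp before the start, between the gene and its neighbour Daxx, 461 bp away. The pileup, or the count of overlapping ChIP fragments at the summit, was 16. The fold enrichment, (pileup + 1) over (background + 1) as the authors' peak caller gives it, was 8.60. Its 95% interval of 5.13 to 13.6 is the exact Poisson interval of the pileup with the background held fixed and covers counting error only, as do all intervals given with a fold. The background here was 0.977, a floor shared by 44.1% of all peaks and not a local input value. Among peaks at this floor the fold follows from the pileup alone. The next summit was 4.88 kb away. The whole of this peak lay outside the gene, just ahead of it.

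Zbtb9, at chromosome 17, 26973179 to 26976203, had a peak of the same pileup and fold (16 fragments, 8.60-fold, 5.13 to 13.6) at 26973122 to 26973351, with its summit 51 bp inside the gene. Zbtb45 (chromosome 7, 13005666 to 13010047) had its peak at 13009710 to 13009995. There were 15 fragments at the summit, for an enrichment of 8.09-fold (4.75 to 13.02), and the summit lay 8 bp before a listed start and 187 bp from the end of the span. No other protein-coding gene had an end within 10 kb of that summit, the nearest being Slc27a5 at 11.7 kb. All 3 of these genes are short, with spans of 3.15, 3.03 and 4.38 kb.

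Zbtb1, a gene needed for lymphocyte development, and Zbtb25 stand next to each other on chromosome 12, and their spans overlap (76370051 to 76396955 and 76348900 to 76370214). Their shared peak at 76370367 to 76370542 reached 12 fragments and 6.58-fold (3.64 to 11.1). Its summit was 11 bp before the listed start of Zbtb1, which runs on the plus strand, and 949 bp before the nearer listed start of Zbtb25 on the minus strand. By distance to the span end the peak was nearer to Zbtb25 (295 bp) than to Zbtb1 (458 bp), so that the measure chosen decides which gene of the pair comes first. Of all peaks, 29.6% had a lower fold.

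The 2 Zbtb peaks with the highest folds lay inside long genes, 34.0 and 57.9 kb from the nearest protein-coding gene end. Zbtb20, whose product is known for repressing fetal genes in liver and for its part in the hippocampus, spans 759 kb on chromosome 16 (42875689 to 43634392) and held 4 peaks. The strongest of them (43592027 to 43592258) reached 28 fragments over a local background of 1.34, or 12.4-fold (8.37 to 17.7), with rank 148 of 2977 by fold. Another lay 17953 bp from it at 43574102 to 43574274, where 16 fragments gave 8.60-fold (5.13 to 13.6). The remaining 2 had a pileup of 14 each and folds of 7.27 (4.19 to 11.9) at 43464283 to 43464628 and 7.20 (4.16 to 11.8) at 42910185 to 42910388. The intervals of all 4 overlap, and a difference among the 4 peaks was not tested.

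Within Zbtb20 the 3 peaks with the higher coordinates were 217, 327 and 345 kb past the 1 listed start and the first was 337 kb before it, inside the span all the same and also inside the long noncoding RNA gene Gm19522. The strongest peak was 42.2 kb from the end of Zbtb20 and nearer to an end of Tigit (34.0 kb), an immune receptor gene. That end of Tigit also lies inside the Zbtb20 span. Exons were not used here, so that a peak inside a gene is not placed further. Of the 989 protein-coding genes longer than 200 kb, 8 held more than 4 peaks and 20 held at least 4.

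**Figure D2:**
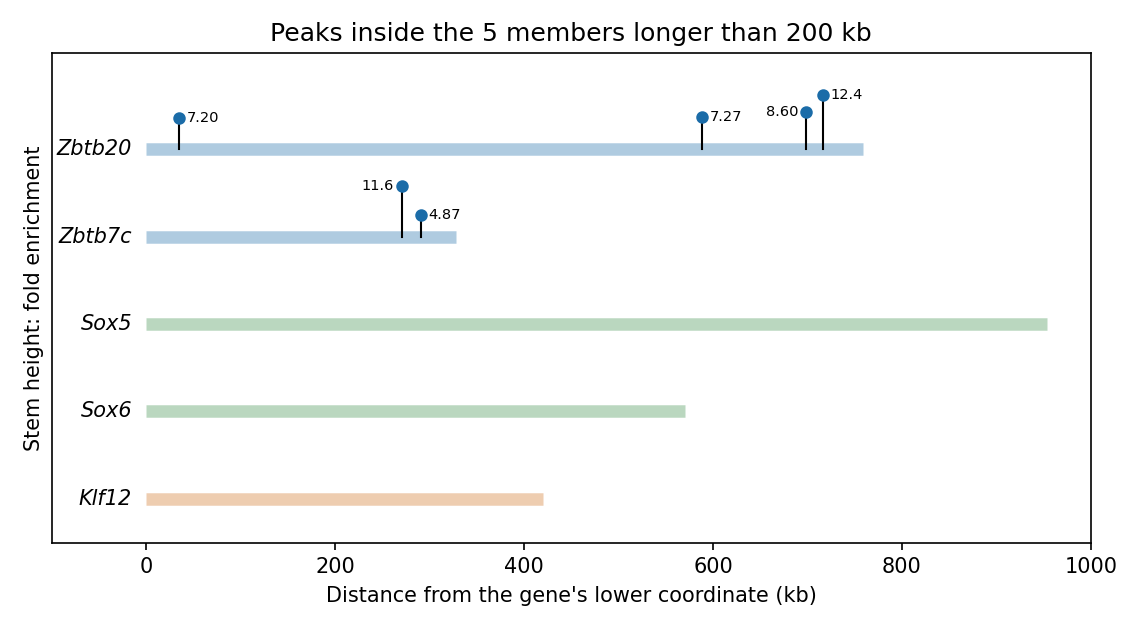
Spans of the 5 members longer than 200 kb, drawn as bars from the gene's lower coordinate (kb), with a stem at each peak whose height is its fold enrichment, printed beside it. Zbtb20 holds 4 peaks from 7.20 to 12.4-fold, Zbtb7c holds 11.6 and 4.87-fold, and Sox5, Sox6 and Klf12 hold none.

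Zbtb7c, a relative of the proto-oncogene Zbtb7a, spans 328 kb on chromosome 18 (75820178 to 76148564) and held 2 peaks 20.3 kb apart. The stronger, at 76090483 to 76090864, reached 22 fragments and 11.6-fold (7.48 to 17.4). The weaker, at 76110934 to 76111161, reached 14 fragments and 4.87-fold (2.81 to 7.95) over a local background of 2.08, the highest at any of the 12 peaks. Only 2.99% of all peaks had a lower fold than that. Zbtb7a, Zbtb7b and Zbtb7c form a subgroup, and the other two had no peak, with the nearest summits 65.2 and 115 kb away.

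Per 100 kb of span Zbtb20 held 0.527 peaks and Zbtb7c 0.609, where all 989 long genes together held 0.104. At least 2 peaks, the number in Zbtb7c, were held by 109 of the 989, and more than 2 by 46. Sox5 (954 kb), Sox6 (570 kb) and Klf12 (420 kb) are also longer than 200 kb and had no peak inside them, as was the case for most genes of that length, since 255 of the 989 had one. Sox5 and Sox6 belong to the SoxD group of factors without an activation domain of their own, and Klf12 to the KLF factors that bind the corepressor CtBP. The nearest summits stood 728 kb from Sox5, 206 kb from Sox6 and 5092 kb from Klf12.

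Sox9, the regulator of cartilage formation, had the peak with the highest fold in the 3 families, although the strongest peak of Zbtb20 had more fragments and an overlapping interval. The gene lies at chromosome 11, 112782210 to 112787757, and the peak at 112781412 to 112781778 was outside it, 627 bp from its nearer end. The pileup was 25 on a background at its floor of 0.977 fragments, and the fold was 13.2 (8.69 to 19.2). This was higher than at 96.0% of all peaks, with rank 101 of 2977 by fold. The next summit was 753 kb away and the next protein-coding gene end 463 kb, so that this peak stood alone.

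The other 18 Sox genes had no peak. Within the SoxE group, whose members act in neural crest, glia and cartilage, the nearest summit was 262 kb from Sox8 and 277 kb from Sox10. The pluripotency and neural genes of group B1 (Sox1, Sox2 and Sox3) were 706 to 4293 kb from a summit, those of group B2 (Sox14 and Sox21) 730 to 1020 kb, and those of group C (Sox4, Sox11 and Sox12) 138 to 1293 kb. Group F, which acts in endothelium (Sox7, Sox17 and Sox18), was at 360 to 1063 kb. Sox13 of group D was at 262 kb. Sox15 and Sox30 were closer, at 5.74 and 34.0 kb, but each of those summits was nearer to another gene.

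Klf16, a factor of the KLF group that binds the corepressor Sin3A, had the peak with the fewest fragments among the members. Its peak at chromosome 10, 80578469 to 80578640, had its summit 1296 bp outside the gene (80567121 to 80577296), inside the long noncoding RNA gene Gm26710. The pileup was 9, the smallest value in the whole list, and the fold was 5.06 (2.59 to 9.15). Only 3.76% of all peaks had a lower fold.

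The other 16 Klf genes had no peak. The activator group (Klf1, Klf2, Klf4, Klf5, Klf6 and Klf7) ran from 69.4 kb for Klf4, the pluripotency factor, to 6064 kb for Klf5, with Klf2 at 122 kb and Klf6 at 322 kb. The Sin3A-binding group without Klf16 ran from 57.7 kb for Klf11 to 338 kb for Klf13, with Klf9, Klf10 and Klf14 between them at 206, 94.3 and 263 kb. Klf3 and Klf8 of the CtBP-binding group were at 187 and 4090 kb. Klf15, a regulator of muscle metabolism, was at 982 kb and Klf17 at 90.8 kb.

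**Figure D3:**
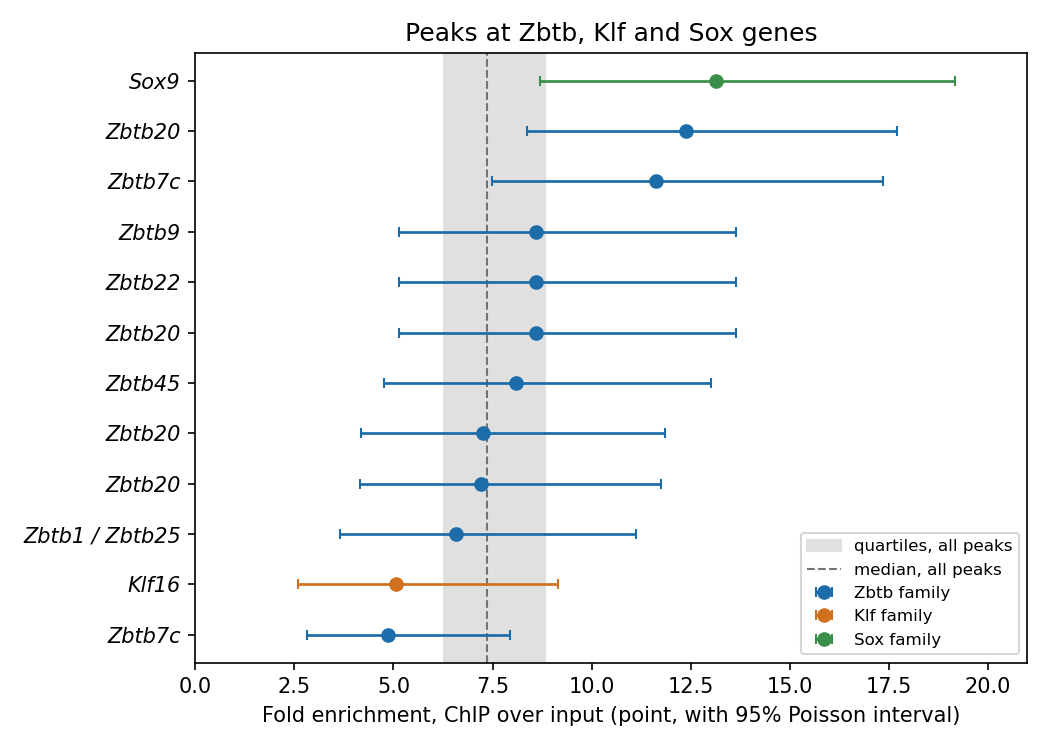
Fold enrichment of the 12 peaks at members, as points with 95% Poisson intervals, coloured by family, with the median (7.35) and quartiles (6.27 to 8.82) of all peaks on assembled chromosomes in grey. The peaks of Sox9, Zbtb20 and Zbtb7c at 13.2, 12.4 and 11.6-fold stand right of the grey band, and Klf16 and the weaker peak of Zbtb7c left of it.

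By fold the 12 peaks ranked from 101 to 2882 among the 2977 of the list. Their median fold was 8.35 against 7.35 over all peaks, and their median pileup 15.5 against 15 fragments. The intervals of Sox9, Zbtb20 and the stronger Zbtb7c peak lay above the median of all peaks, and those of the other 9 contained it. 8 of the 12 peaks (66.7%) had a background at the floor, against 44.1% of all peaks. Summits within 1000 bp of a protein-coding gene end made up 5 of 12 (41.7%, Wilson interval 19.3 to 68.0%) against 29.1% of all peaks, and summits inside a protein-coding gene 9 of 12 (75%, 46.8 to 91.1%) against 49.5%. Nothing is read from these shares, since the rule took member peaks for lying in or near a gene and the list also holds peaks given to no gene. The 5 peaks near a gene end were those of Zbtb1 with Zbtb25, Zbtb9, Zbtb22, Zbtb45 and Sox9. How many of the sorted cells carried the precipitated protein at a site and how often it was there in each cell cannot be told apart in such a pileup.

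The 34 Zbtb genes without a peak included several with a known part in blood cells. The nearest summit was 957 kb from Zbtb16 (PLZF, of innate-like T cells), 115 kb from Zbtb7b (ThPOK, of CD4 T cells) and 626 kb from Zbtb46 (of dendritic cells). It was 628 kb from Zbtb18 and 91.3 kb from Zbtb17, which encodes the MYC partner MIZ1. The methyl-CpG-binding genes Zbtb4, Zbtb33 and Zbtb38 were at 6.79, 234 and 51.7 kb. Zbtb2, Zbtb3, Zbtb5, Zbtb6, Zbtb7a, Zbtb8a, Zbtb8b, Zbtb8os, Zbtb10, Zbtb11, Zbtb12, Zbtb14, Zbtb21, Zbtb24, Zbtb26, Zbtb32, Zbtb34, Zbtb37, Zbtb39, Zbtb40, Zbtb41, Zbtb42, Zbtb43, Zbtb44, Zbtb48 and Zbtb49 made up the rest. Over whole families the median distance from gene to nearest summit was 94.3 kb for Zbtb, 263 kb for Klf and 360 kb for Sox, against 223 kb for all protein-coding genes on chromosomes with a peak. The quartiles overlapped widely, with 27.8 to 275 kb for Zbtb, 94.3 to 1053 kb for Klf, 234 to 972 kb for Sox and 65.5 to 610 kb for all genes.

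**Figure D4:**
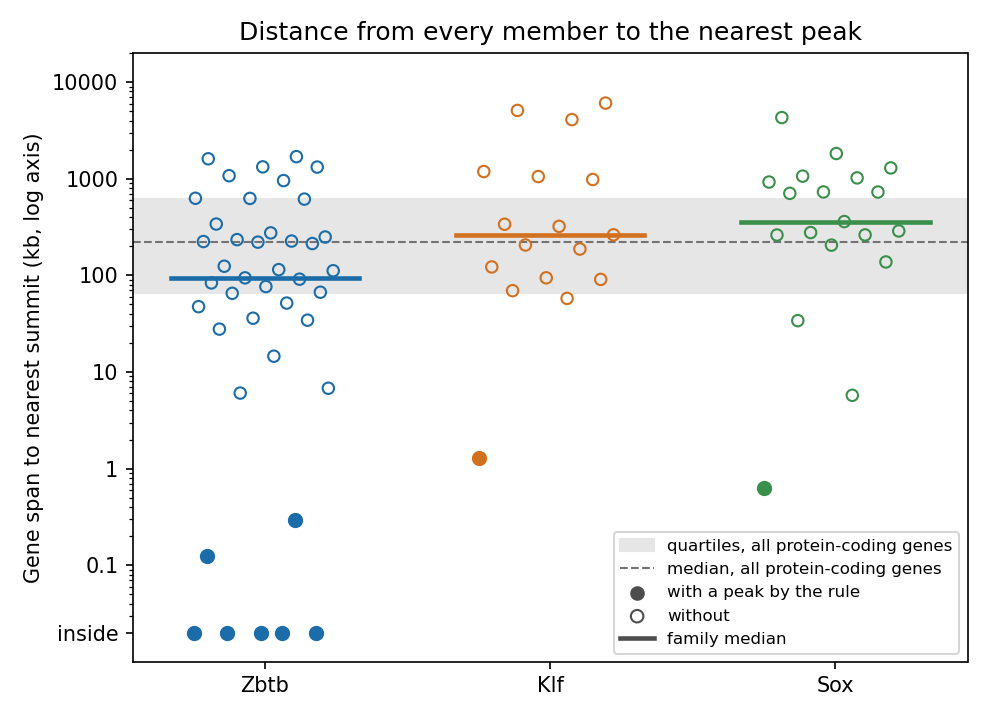
Distance in kb (log axis) from the span of every member to the nearest summit, by family, with filled points for genes with a peak, open points for the others and a bar at the family median (94.3, 263 and 360 kb). The grey band and dashed line are the quartiles and median of all protein-coding genes (65.5, 610 and 223 kb); the 5 Zbtb points at the bottom have a summit inside the gene.

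Several members had a summit close by that was given to a neighbour. A summit lay within 50 kb of the span at 14 Zbtb genes (34.1%, Wilson interval 21.6 to 49.5%), 1 Klf gene (5.88%) and 3 Sox genes (15.8%, 5.52 to 37.6%), against 21.5% of all protein-coding genes. The lower bound for Zbtb lay just above the share of all genes. Nothing is read from that bound, since this measure was chosen after the data were seen and Zbtb1 and Zbtb25 share 1 of these summits. In 9 of these 18 cases, 7 Zbtb and 2 Sox genes, the summit was nearer to another gene, and at all 9 it lay 16 to 488 bp from that gene's end. Over all protein-coding genes in this position 62.2% had the nearest summit within 1000 bp of another gene's end.

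The pairs of member and neighbour were as follows. The strongest was a peak of 15.7-fold (10.7 to 22.2) 34.0 kb from Sox30 and 69 bp from Lsm11, a gene of histone RNA processing. A peak of 13.7-fold (9.10 to 19.8) lay 14.6 kb from Zbtb8b and 142 bp from Bsdc1. One of 11.6-fold (7.48 to 17.4) lay 34.4 kb from Zbtb12 and 16 bp from Neu1, the gene of a lysosomal sialidase. Zbtb4 and Zbtb5 had summits at 6.79 and 6.05 kb that belonged to the RNA polymerase genes Polr2a (488 bp) and Polr1e (143 bp), with folds of 9.10 and 6.05. Sox15 had one at 5.74 kb that belonged to Mpdu1 (183 bp), with a fold of 9.10. At Zbtb3, Zbtb37 and Zbtb32 the distances were 27.8, 36.03 and 47.4 kb and the genes with the nearest end Tmem179b, Cenpl and Rbm42. The summit near Zbtb3 lay inside another gene, Taf6l.

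No count by the assignment rule turned on a peak close to the 50 kb limit. Of the peaks outside a member's span the farthest counted was that of Klf16 at 1296 bp, and every peak farther from an end of its gene lay inside it. Beyond the limit a peak of 7.55-fold was nearest to Zbtb10 at 76.6 kb. Next came a peak of 5.86-fold nearest to Sox4 at 138 kb and one of 9.80-fold nearest to Klf6 at 322 kb. The count of summits within 50 kb of the span did have members near its limit. Zbtb32 at 47.4 kb was counted there and Zbtb38 at 51.7 kb was not.

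The nearest relatives of the families, taken from lists by name, had peaks in counts of 0 to 2 a list, beside 9.62% of all protein-coding genes. Of 10 BTB zinc finger genes under other names 1 had a peak, namely Bcl6, the repressor of germinal centre B cells, at 7.59-fold (4.38 to 12.4) inside the gene. None of the 9 Sp genes, the closest relatives of the KLF genes, had one. Of 11 other HMG box genes 2 had a peak, Tox2 at 8.33-fold (4.97 to 13.2) and Tox3 at 6.37-fold (3.53 to 10.8). Of 14 cofactors of the families 2 had one. They were Cul3, the ubiquitin ligase scaffold that BTB proteins can bind, at 5.19-fold (2.74 to 9.16) and 538 bp from its end, and the corepressor gene Bcor at 7.84-fold (4.61 to 12.6) and 37.5 kb from its end. With lists of 9 to 14 genes, such counts are near that share.

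3 members, Zbtb33, Sox3 and Klf8, lie on the X chromosome and had no peak, where 17 peaks in all gave a peak to 1.45% of 963 protein-coding genes. Of 10 marker genes of muscle stem cells 6 had a peak (Pax7, Myod1, Vcam1, Calcr, Sdc4 and Chrdl2), beside 9.62% of all protein-coding genes. Myf5, Cdh15, Itga7 and Cxcr4 had none. Peaks were also at 4 of 7 endothelial markers (Tek, Cdh5, Pecam1 and Erg, but neither Sox17 nor Sox18) and 1 of 5 fibro-adipogenic markers (Col1a1). At 0 of 4 Schwann cell markers, Sox10 among them, and 0 of 4 leukocyte markers was there a peak. A peak at a gene does not measure its expression, so these counts do not show which cells were in the sort.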

How the data were processed

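The labels' protocols give single-end sequencing of 50 bp for both libraries. HISAT2 2.10, bcl2fastq 2.16, MACS2 2.1.1 and GRCm38 are named in the submitters' processing notes, without role or order. Per the file headers, the authors ran MACS 2.1.1.20160309 with a q-value cutoff of 0.01, 1 tag kept per position, fragments of 172 bp and the larger input scaled down to ChIP depth. In the deposited table the pileup is a signal of fragment coverage and the fold enrichment a ratio, and the deposited −log10 p-value and q-value come from the caller's test; the p-value was not used in any result. Tags are amplified by PCR without molecular identifiers, so intervals cover counting error only.

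The background was recovered from fold and pileup. Genes came from RefSeq's GRCm38.p6 table, without strand or exons; 126 protein-coding genes on scaffolds were left out, and 2975 of the 2977 peaks lay on assembled chromosomes. Peaks were assigned to genes with numpy 2.4.6 and pandas 2.3.3, checked on made-up positions; intervals came from scipy 1.17.1. Every member with a peak is named; the 3 strongest peaks of each family, those near a gene end and those at genes with several peaks carry full values, and the values of members without a peak were added after they were seen. Members and lists were chosen with earlier results of these data known.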

Additional observations from a re-analysis of the deposited data

How the results depend on the processing

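The Zbtb count was between 5 and 8 under the 9 other assignment and peak settings, and 4 genes (Zbtb7c, Zbtb9, Zbtb20 and Zbtb45) had a peak under all 9. Counting summits inside the span only left 0 Klf and 0 Sox genes and 0 peaks for either, with 5.49% of all protein-coding genes. The nearest end alone gave 6 Zbtb peaks in place of 10 and 8.42% of all genes, and a 10 kb limit gave 8.48% of all genes. With no distance limit there were 2 Klf genes with 2 peaks and a highest fold of 9.80, 2 Sox genes with 3 peaks, and 10.7% of all genes. When the nearest end was taken over genes of every kind, 0 Klf genes and 0 peaks were left, with 8.52% of all genes. Keeping only the peaks whose −log10 q reached the median gave 6 Zbtb peaks, 0 Klf genes with 0 peaks, and 5.23% of all genes. Peaks at the lowest background gave 6 Zbtb peaks and 4.94% of all genes. Summits within 50 kb of the span, a setting chosen after the data were seen, gave 14 Zbtb and 3 Sox genes. No highest fold could be given where a family had no peak left. The share of member peaks near a gene end was 33.3% within 500 bp and 50.0% within 2500 bp. Klf and Sox counts of 1 rest on 1 peak each, with 9 fragments at the Klf peak and 25 at the Sox peak; no setting varied the depth. No paired analysis was possible because each group had 1 library.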
